A study of Mus musculus with 86 samples.

Results

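The cyclins, the cyclin-dependent kinases (CDKs) and the Cdc and Mcm genes were followed through 4 organs of mice with 1 disrupted copy of Dll1, a ligand of the Notch receptors. Members were all genes whose platform symbol starts with Ccn and a letter from a to l, Cdk, Cdc or Mcm, each followed by a digit. This gave 56 genes with 84 probes, of 9030 named genes and 20794 probes on the array. Each gene was represented by the probe with the most usable values. The rule goes by symbol and used no measured value, so it also takes in genes with other duties, such as the GTPase Cdc42 and its effectors. Ccnd1, which the rule would take in, is not among the 56 genes, as no probe carried that symbol.

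RNA of liver, thymus, spleen and brain of male mice heterozygous (+/-) for the Dll1tm1Gos allele, in which a lacZ insertion interrupts Dll1 in every cell of the animal, was hybridised on 2-colour cDNA arrays. The partner on each array was a pool of wild-type RNA from the same strain and organ, from males of the same age. Mice of the C3H line, made by repeated outcrossing of the allele to C3HeB/FeJ, were 15 weeks old per the labels, and mice of the original line, 129SvJ/Iso in the labels, were 16 weeks old. Organs came from 5 heterozygous mice of each strain, numbered 1 to 5 here, although only 4 of them gave liver and 4 gave brain in 129SvJ/Iso. In 129SvJ/Iso thymus a pool of heterozygous RNA met the wild-type pool on 6 arrays, which are technical repeats and allow no test. The labels list 5 mice in the C3H wild-type pool and 4 in that of 129SvJ/Iso. Each pool counts as a single control sample, so the spread among wild-type mice is not part of any p-value below. For each mouse, arrays were averaged within and then over the dye orientations, giving 1 log2 ratio of heterozygous over wild type, so that 1 unit is a doubling.

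Values could be used less often in 129SvJ/Iso than in C3H: 19.3 to 21.4% of the members' values were missing in the 129SvJ/Iso groups and 1.79 to 7.94% in C3H. The median SD over mice of all tested probes was 0.23 to 0.46 in C3H and 0.50 to 0.71 in 129SvJ/Iso. Which genotype is the numerator is not stated, and heterozygous over wild type is the likely direction, taken from genes the study gives as lower. Only those that could be found by symbol on the array were used. The 7 such liver genes other than Cdk2 lay between −0.89 and −0.77 in C3H liver, and 7 of 9 thymus genes were below 0 in C3H thymus. Those 9 ranged from −0.89 to 1, and 5 of them were below 0 at an unadjusted p under 0.05 (limma), so thymus was less uniform than liver. Arrays of opposite dye from 1 mouse did not correlate in 129SvJ/Iso brain, C3H spleen, 129SvJ/Iso spleen and C3H brain (median Spearman −0.11, −0.04, 0.00 and 0.02). Most named members there are therefore also given with the sign turned on the Cy5 arrays. Dye effects do not cancel in those turned values. The other groups, left unturned, had medians of 0.06 in C3H thymus, 0.12 in C3H liver and 0.22 in 129SvJ/Iso liver. The thymus median was close to that of C3H brain. Of all its probes 48.4% had the same sign on both dyes, against 48.7% in C3H spleen and 47% in C3H brain. Named results of C3H thymus therefore carry a similar dye limit, without turned values beside them. Per group, 32.7 to 57.4% of the members had the same sign on Cy3 and Cy5 arrays, against 37.3 to 63.8% of all probes. The files hold ratios only, so the tissue could not be checked by the level of its markers. In such bulk RNA, fewer cells of a type and less RNA per cell cannot be told apart.

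Cyclins bind and activate CDKs, and the sequence of cyclin and CDK pairs carries a cell from growth through DNA replication into mitosis. D-type cyclins with Cdk4 or Cdk6 inactivate the retinoblastoma protein, which frees E2F factors to transcribe replication genes. Cyclin E and cyclin A with Cdk2 then act at and after the start of replication, where Cdc6 loads the ring of Mcm2 to Mcm7 onto DNA and Cdc45 joins to make the active helicase. Cdk1 with cyclin A or B, switched on by Cdc25 phosphatases, drives mitosis, and Cdc20 triggers its end through the anaphase-promoting complex. In the adult, thymus and spleen hold many dividing cells while most hepatocytes and neurons rest. Notch signals reach DNA through the factor RBPJ.

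The promoter windows of the RefSeq annotation (GRCm38.p6) cover 250 bases before to 50 bases after a gene's start, and 49 of the 56 members had one. An E2F motif, spelled TTTCCCGC, TTTCGCGC, TTTGCCGC or TTTGGCGC on either strand, was present in 8 of 49 members (16.3%) against 2.60% of 27025 genes. Those members were Cdc25a, Cdc6, Cdk1, Cdk2, Mcm3, Mcm5, Mcm6 and Mcm7. The core RBPJ motif TGGGAA on either strand was present in 9 of 49 members (18.4%) against 28.3% of genes. The cell cycle element TTTGAA was present in 11 of 49 (22.4% against 20.2%) and the CCAAT box, spelled CCAAT, in 29 of 49 (59.2% against 41.1%). A gene with several listed starts was counted if any of its windows held the motif. A match describes letters only, since no factor's binding was measured. Windows of 4 genes that the results below return to are printed on the strand of the gene, as examples of the E2F motif beside a kinase of the start of replication, a mitotic kinase, a loader and a helicase subunit. Capitals mark E2F and RBPJ motifs. They are Cdk2 at chr10:128705002-128705301 (minus strand), Cdk1 at chr10:69352863-69353162 (minus), Cdc6 at chr11:98907901-98908200 (plus) and Mcm6 at chr1:128359656-128359955 (minus).
Cdk2: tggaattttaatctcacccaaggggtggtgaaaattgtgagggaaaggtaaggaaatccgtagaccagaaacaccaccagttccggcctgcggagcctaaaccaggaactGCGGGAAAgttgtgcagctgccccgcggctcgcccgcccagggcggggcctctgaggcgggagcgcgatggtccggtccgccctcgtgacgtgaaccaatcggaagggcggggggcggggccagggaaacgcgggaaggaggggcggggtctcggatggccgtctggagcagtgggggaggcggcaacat
Cdk1: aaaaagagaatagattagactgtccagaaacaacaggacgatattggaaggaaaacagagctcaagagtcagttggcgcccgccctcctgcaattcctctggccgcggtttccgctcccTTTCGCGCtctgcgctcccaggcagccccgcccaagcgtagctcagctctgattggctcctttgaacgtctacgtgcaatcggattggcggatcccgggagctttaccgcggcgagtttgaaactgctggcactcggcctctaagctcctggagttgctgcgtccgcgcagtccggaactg
Cdc6: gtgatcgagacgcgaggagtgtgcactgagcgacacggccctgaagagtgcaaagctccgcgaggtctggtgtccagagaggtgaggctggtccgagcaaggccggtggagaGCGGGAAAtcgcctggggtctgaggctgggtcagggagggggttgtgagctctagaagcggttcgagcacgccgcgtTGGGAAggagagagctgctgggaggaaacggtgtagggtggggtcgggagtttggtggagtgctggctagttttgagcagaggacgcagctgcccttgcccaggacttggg
Mcm6: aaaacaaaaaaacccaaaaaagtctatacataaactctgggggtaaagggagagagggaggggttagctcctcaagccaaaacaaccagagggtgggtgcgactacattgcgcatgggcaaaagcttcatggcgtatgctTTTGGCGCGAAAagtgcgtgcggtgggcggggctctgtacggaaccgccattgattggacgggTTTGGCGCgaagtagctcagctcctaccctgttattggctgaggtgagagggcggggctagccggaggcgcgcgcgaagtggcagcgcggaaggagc
The Cdc6 window held 1 E2F motif and, further on, the RBPJ core. In Mcm6 the first pair of E2F motifs overlaps on opposite strands within 1 run of capitals.

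Of all tested members, 0 passed limma's adjusted p of 0.05 in any of the 7 groups with mouse replicates, and neither did any other probe on the array (0% in each). Counts at an unadjusted p under 0.05 were therefore set beside the share of all tested probes that reached it. Higher and lower refer to that threshold in what follows. In C3H liver 6 of 55 members were higher, where 6.11% of all probes were, and 1 was lower, where 7.66% were. In C3H thymus it was 0 of 54 higher (2.82% of all probes) and 3 lower (5.31%), and in C3H spleen 0 of 52 higher (3.08%) and 1 lower (2.86%). C3H brain had 1 of 55 higher (3.73%) and 3 lower (5.03%). The total share of members was 12.7% in C3H liver against 13.8% of all probes, and 5.56%, 1.92% and 7.27% in thymus, spleen and brain against 8.13%, 5.95% and 8.76%. No test of these shares against the array was made. In C3H liver the members were mostly above 0, with 39 of 55 above 0, a median of 0.09 and 29.1% below 0 against 43.4% of all probes, whose median was 0.03. The medians in the other C3H organs were 0.01, −0.04 and 0.01.

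The C3H liver count of 7 became 3, 4 and 3 when mouse 3, 4 or 5 was left out, and 3 when each array was centred on its median. Without mouse 1 or 5 the thymus count was 0, the spleen count became 2, 3 and 2 without mouse 2, 3 or 4, and the brain count became 1, 1 and 2 without mouse 1, 2 or 5.

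In 129SvJ/Iso liver 0 of 42 members were higher (7.86% of all probes) and 3 lower (6.25%). In spleen 1 of 46 was higher (2.42%) and 1 lower (2.35%), and in brain 2 of 45 were higher (2.47%) and 1 lower (2.85%). Medians of the members lay at 0.02, 0.01 and 0.03, against 0.07, −0.01 and 0.02 over all probes. The liver median depended on the mice and members used: it lay between −0.26 and −0.12 with any 1 mouse left out, and the 19 members with a value in every mouse had a median of −0.42. Leaving out mouse 1, 2, 3 or 5 gave 1, 1, 6 and 0 liver members, and leaving out mouse 5 gave 0 in spleen and 1 in brain.

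**Figure D1:**
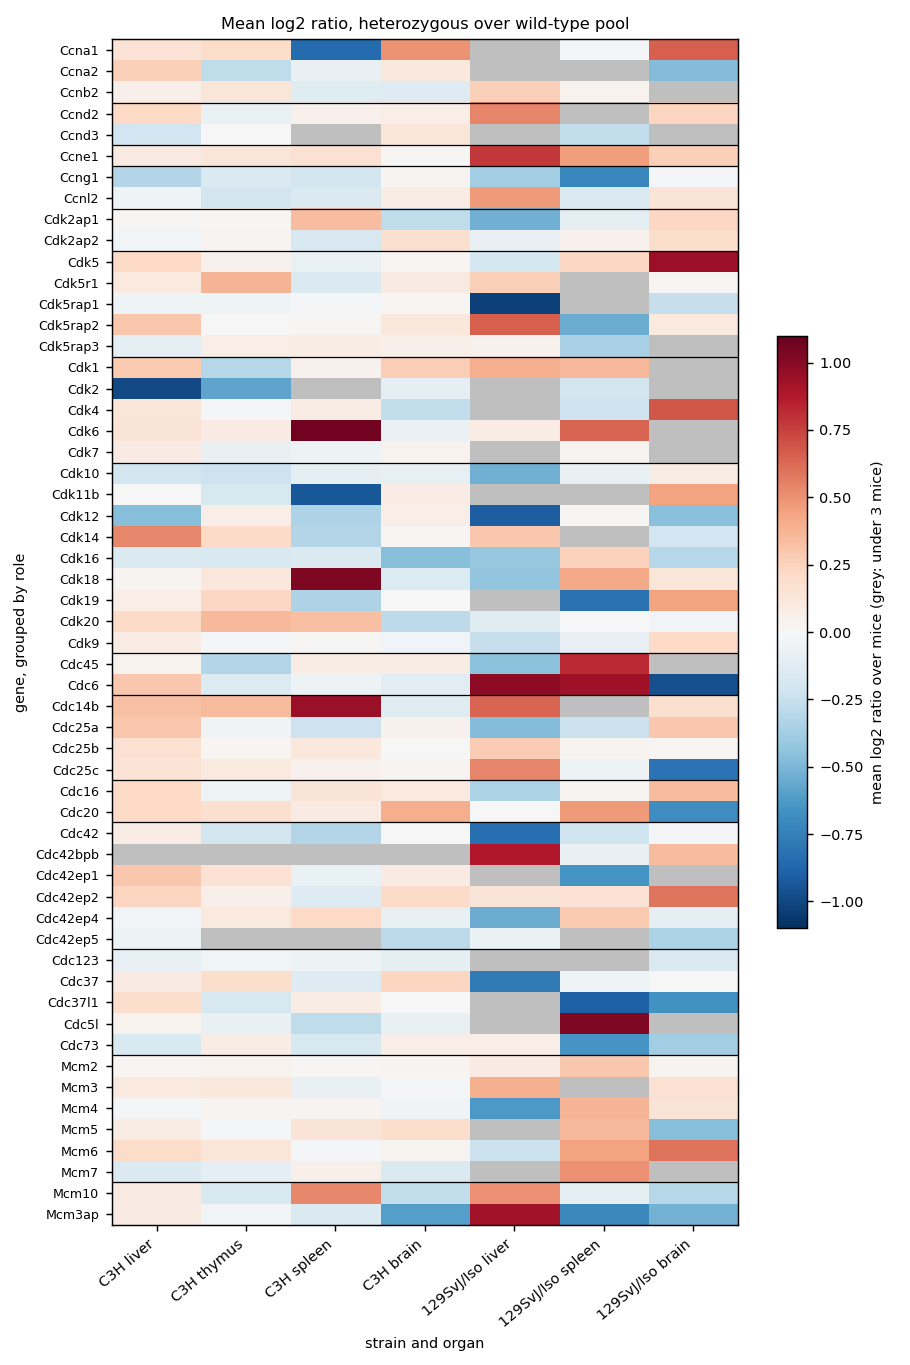
Mean log2 ratio of heterozygous over wild-type pool for each of the 56 genes (rows, grouped by role between black lines) in the 7 groups with mouse replicates (columns); red is above 0, blue below 0 and grey marks fewer than 3 mice. Of the 29 genes tested in all 7 groups, 3 stay above 0 throughout and 0 stay below 0 as measured. The same share over all probes was not counted.

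Few members pointed the same way everywhere. Of 29 members tested in all 7 groups, 3 were above 0 in each and 0 were below 0 in each. The 3 were the E-type cyclin Ccne1, with group means from 0.01 in C3H brain to 0.78 in 129SvJ/Iso liver, the phosphatase gene Cdc25b (0.00 to 0.28) and the helicase subunit Mcm2 (0.01 to 0.30). With the sign turned on the Cy5 arrays of C3H spleen and 129SvJ/Iso brain, 0 members were above 0 in each group and 1 was below 0 in each, Cdk10. Which members kept 1 sign thus depended on that turn. The share of all probes that kept 1 sign was not counted, so these counts cannot be set against the array. The median distance between a member's lowest and highest group mean was 0.83. For Cdc6 it was 1.95, from −0.97 in 129SvJ/Iso brain to 0.98 in 129SvJ/Iso liver, and 1.28 with the sign turned in both groups. That was the widest as measured, but with the turn Mcm10 (1.99), Cdk16 (1.86), Mcm3ap (1.64) and Cdk5 (1.36) were wider. Organs of 1 strain came from the same mice, so these groups are not independent of each other.

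Among the kinases of the cell cycle proper, Cdk2 had the lowest mean of any member in C3H liver. Its mouse values there were −1.54, 0.08, −1.89, −1.12 and −0.48. They lay below 0 in 4 of 5 mice, with a mean of −0.99 ± 0.80 (SD, n = 5), or 0.503 of the wild-type level (adjusted p = 0.36). Cdk2 is itself on the study's list of lower liver genes, so this value is not independent evidence of the direction. A second Cdk2 probe, for another RefSeq transcript, gave −0.37 ± 0.44, below 0 in 4 of 5 mice.

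In C3H thymus the mouse values of Cdk2 were −1.82, −0.61, 0.22, −0.18 and −0.51, again below 0 in 4 of 5, with a mean of −0.58 ± 0.76 (adjusted p = 0.628). C3H brain had −0.10 ± 0.29 (adjusted p = 0.77), or 0.15 with the Cy5 arrays turned. In 129SvJ/Iso spleen the values −0.11, 0.35, −0.28, 0.73 and −1.67 lay on both sides of 0, with a mean of −0.20 ± 0.92 that became 0.17 without mouse 5 and −0.24 with the Cy5 arrays turned. Elsewhere this probe was usable in 1 mouse (0.45 in C3H spleen, 0.41 in 129SvJ/Iso liver) or in 2 (−1.12 and 0.05 in 129SvJ/Iso brain), too few to test. The second probe could be tested in those groups. It was lower in 129SvJ/Iso liver at the unadjusted threshold, with −1.43 ± 1.49 and 2 of 3 mice below 0, which is opposite in sign to the 1 mouse of the first probe. In C3H spleen it had 0.28 ± 0.52 (n = 5) and in 129SvJ/Iso brain 0.06 ± 0.98 (n = 3).

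Cdk1, the kinase of mitosis, was among the 3 lower members in C3H thymus. Its mouse values were −0.29, −0.48, −0.24, 0.05 and −0.57. All but mouse 4 lay below 0, and the mean was −0.31 ± 0.24, or 0.809 of wild type (adjusted p = 0.609). T cell markers in the same organ had a median of −0.10, with 6 of 9 below 0 and a range of −0.41 to 0.09, and 2 of the 9 were lower at the unadjusted threshold. Neuron markers there were above 0 in 8 of 10 (median 0.19, range −1.14 to 1.83), with 4 higher. The part of either list in the Cdk1 value was not tested. In C3H thymus 4 of the 5 cell cycle CDKs had means below 0, with a median of −0.08.

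Cdk4, a partner of D-type cyclins, had means of opposite sign in brain of the 2 strains. In C3H brain the mice had −0.39, −0.47, 0.09, −0.38 and −0.18, a mean of −0.27 ± 0.23 (adjusted p = 0.565), or 0.15 with the Cy5 arrays turned. In 129SvJ/Iso brain the 3 mice with a value had 0.65, 0.72 and 0.68, a mean of 0.68 ± 0.03 (adjusted p = 0.793). The close agreement of those 3 mice hid a gap between dyes, as the Cy3 arrays averaged 1.63 and the Cy5 arrays −0.50. With the sign turned on the Cy5 arrays the 129SvJ/Iso mean was 1.35 (adjusted p = 0.237).

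Of the D-type cyclins, Ccnd2 lay above 0 in every C3H liver mouse, at 0.33, 0.10, 0.27, 0.05 and 0.35 (mean 0.22 ± 0.14, adjusted p = 0.36). Its other probe pointed the opposite way there, with −0.81 ± 0.65 and 3 of 3 mice below 0, and the mean of both probes was −0.09. The sign for Ccnd2 therefore depends on the probe. Ccna1, the A-type cyclin best known from male germ cells, was the 1 member lower in C3H spleen. The 4 mice with a value had −0.91, −0.46, −1.59 and −0.44, all below 0, with a mean of −0.85 ± 0.54 (adjusted p = 0.796). That mean shrank to −0.14 with the sign turned on the Cy5 arrays (adjusted p = 0.922). Ccnl2, a cyclin of pre-mRNA splicing, was lower in C3H thymus, with −0.23, −0.11, −0.39, −0.02 and −0.27 (mean −0.20 ± 0.14, adjusted p = 0.61). The other 3 Ccnl2 probes had means of −0.21, −0.03 and −0.55 in that organ, so all 4 lay below 0.

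**Figure D2:**
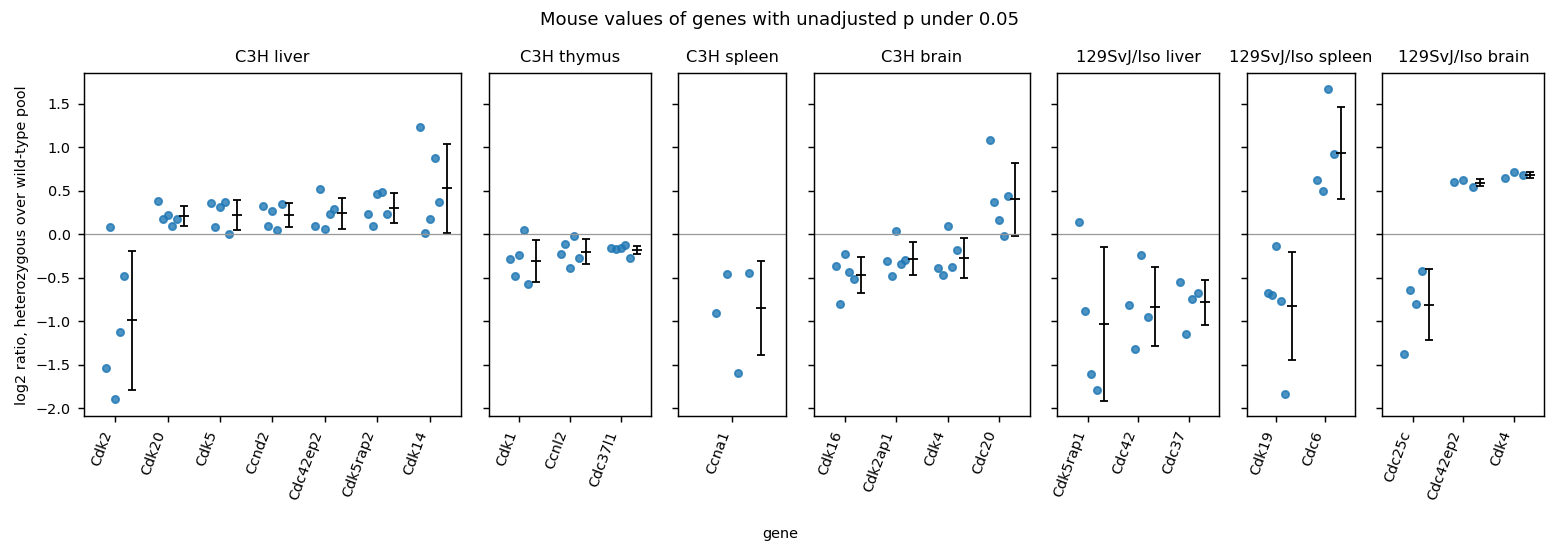
Log2 ratios of single mice (blue points) for the genes with an unadjusted p under 0.05 in each group, with mean and SD over mice in black; none passed adjustment. Among the C3H genes, Cdk2 (−0.99) and Cdk14 (0.53) in liver and Ccna1 (−0.85) in spleen have means more than 0.5 from 0.

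Cdk5 is the kinase of post-mitotic neurons and is activated by the product of Cdk5r1 rather than by a cyclin. In C3H liver Cdk5 had 0.36, 0.08, 0.31, 0.37 and 0.00 (mean 0.22 ± 0.17, adjusted p = 0.36), while its other probe gave −0.09 ± 0.23. Cdk5rap2, which encodes a centrosome protein, lay above 0 in all 5 C3H liver mice at 0.23, 0.09, 0.46, 0.48 and 0.23 (mean 0.30 ± 0.17, adjusted p = 0.36). A further Cdk5rap2 probe gave 0.03 ± 0.26. Both genes were thus higher by 1 of their 2 probes only. Cdk5rap1, which encodes an enzyme that modifies mitochondrial tRNA, had 0.14, −0.88, −1.61 and −1.79 in 129SvJ/Iso liver, a mean of −1.03 ± 0.88 (adjusted p = 0.346). In brain of C3H, where Cdk5 acts, the 5 genes of this group had means between 0.01 and 0.12.

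Among the kinases outside the core cycle, Cdk14, a partner of cyclin Y at the membrane, had the highest mean of any tested member in C3H liver. Its values of 1.23, 0.01, 0.17, 0.88 and 0.37 were all above 0 but far apart, with a mean of 0.53 ± 0.51, or 1.45 times wild type (adjusted p = 0.36). Cdk20, a kinase linked to cilia, had 0.38, 0.17, 0.22, 0.09 and 0.18 in the same organ (mean 0.21 ± 0.11, adjusted p = 0.36). Its second probe gave 0.41 ± 0.41, with 4 of 5 mice above 0, so both probes had the same sign. Hepatocyte markers were below 0 in 11 of 11 in C3H liver (median −0.37, range −0.64 to −0.05) and erythroid markers in 5 of 5 (median −0.32). Their part in the C3H liver values was not tested.

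Cdk16, a kinase abundant in neurons and germ cells, had the smallest p of any member in a single group. In C3H brain the mice had −0.36, −0.80, −0.23, −0.43 and −0.51. All 5 lay below 0, and both dye orientations agreed (−0.48 on Cy3 and −0.45 on Cy5 arrays), with a mean of −0.47 ± 0.21, or 0.724 of wild type (adjusted p = 0.565). As both orientations had the same sign, turning the Cy5 arrays took the mean to −0.02. Cdk2ap1, which encodes a protein that binds Cdk2, had −0.31, −0.48, 0.04, −0.34 and −0.30 there (mean −0.28 ± 0.19, adjusted p = 0.565), or −0.13 with the turn. Neuron markers were below 0 in 8 of 9 in C3H brain, with a median of −0.07 and a range of −0.68 to 0.04, and 3 were lower at the unadjusted threshold. Their part in the Cdk16 value was not tested. Cdk19, a kinase of the Mediator complex, was lower in 129SvJ/Iso spleen at −0.68, −0.70, −0.13, −0.77 and −1.83 (mean −0.82 ± 0.62, adjusted p = 0.916), or −0.10 with the Cy5 arrays turned. Of its other probes, those measured in 4 mice gave 0.47 ± 0.48 and 0.40 ± 0.40, so the probes disagreed in sign.

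Of the replication genes, Cdc6 was the 1 member higher in 129SvJ/Iso spleen. Cdc6, the loader whose window is printed above, had 0.62, 0.50, 1.67 and 0.92 in the 4 mice with a value. All were above 0, with a mean of 0.93 ± 0.53, or 1.90 times wild type (adjusted p = 0.916). A second Cdc6 probe, usable in all 5 mice, gave 0.93 ± 0.92 with 4 above 0 and was also higher. With the Cy5 arrays turned the mean of the first probe was 0.00. In C3H thymus the probes disagreed, at −0.15 ± 0.42 and, for the second, 0.85 ± 0.57, above 0 in 4 of 4 mice and higher. Of Mcm2 to Mcm7, 5 could be tested in 129SvJ/Iso spleen. All 5 had means above 0 there, between 0.30 and 0.50, with 0 past the unadjusted threshold. Mcm6, for example, had 0.43, 0.25, 0.86 and 0.23 (mean 0.44 ± 0.29, adjusted p = 0.922). Mcm4 had 0.17, 0.82, 0.40, 0.10 and 0.37 (mean 0.37 ± 0.28, adjusted p = 0.922) and is named here after its values were seen. The mice spread more widely for Mcm5 (0.36 ± 1.01, n = 3) and Mcm2 (0.30 ± 0.47, n = 5), and Mcm7 had 0.50 ± 0.29 (n = 3). Cdc45, at 2.36, −0.21, −0.97 and 2.10, had mice on both sides of 0 (mean 0.82 ± 1.66, or 0.07 with the Cy5 arrays turned). Turned means of the 5 Mcm genes lay between 0.04 and 0.53. Other genes of replication there did not share 1 sign: Mcm10 had −0.10 ± 0.80 and Mcm3ap −0.71 ± 0.42, and 3 of 8 origin licensing genes and 9 of 16 genes of DNA synthesis were above 0 (medians −0.02 and 0.16).

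B cell markers in 129SvJ/Iso spleen were below 0 in 5 of 6, with a median of −0.43 and a range of −1.0 to 0.19. Their part in the replication genes was not tested. In the 4 C3H organs the 6 Mcm2 to Mcm7 genes had means between −0.16 and 0.20, and 0 of them passed the unadjusted threshold in any group of either strain. In 129SvJ/Iso liver the 4 that could be tested ranged from −0.63 to 0.39. Cdc6 had 1.80 in mouse 1 of C3H liver against −0.29 to 0.08 in the other 4, and its mean was 0.30 ± 0.85 (adjusted p = 0.619).

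**Figure D3:**
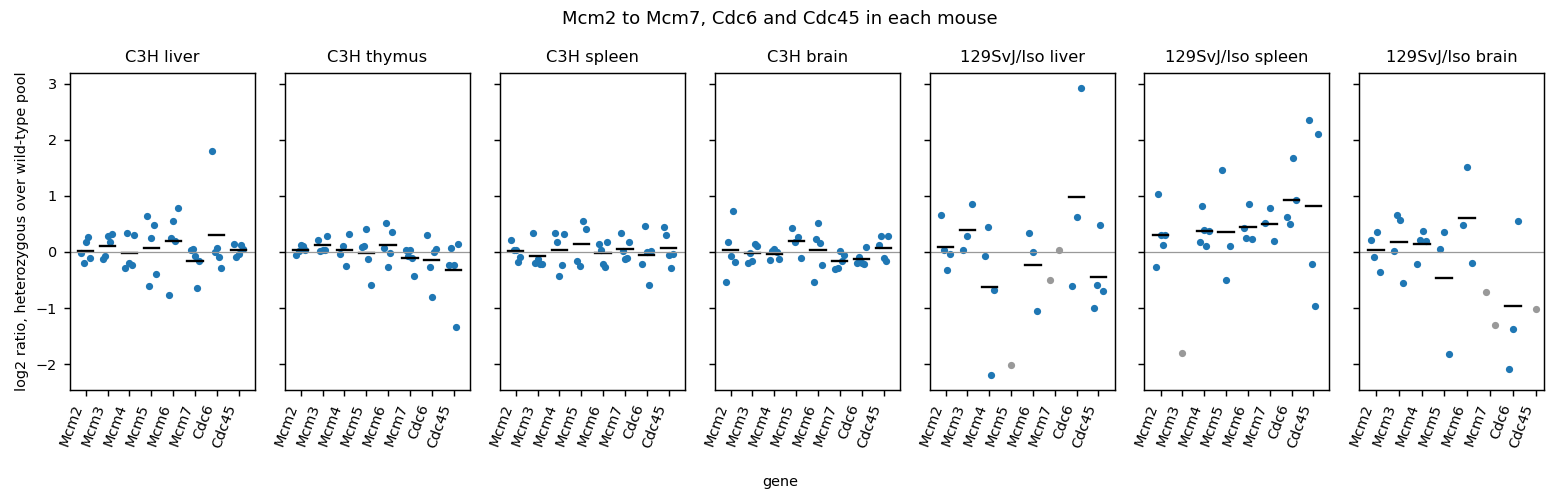
Log2 ratios of single mice for Mcm2 to Mcm7, Cdc6 and Cdc45 in the 7 groups; black bars are means, and grey points belong to genes with a value in fewer than 3 mice. In 129SvJ/Iso spleen the means of the 5 tested Mcm genes lie between 0.30 and 0.50 and that of Cdc6 at 0.93, while the C3H Mcm means lie between −0.16 and 0.20.

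Among the genes of mitotic entry and exit, Cdc20, which activates the anaphase-promoting complex, was the 1 member higher in C3H brain. Its mouse values were 1.08, 0.37, 0.16, −0.02 and 0.44. Mouse 1 stood above the rest, and the mean was 0.40 ± 0.42, or 1.32 times wild type (adjusted p = 0.565). With the Cy5 arrays turned it was −0.10. Cdc25c, a phosphatase that activates Cdk1, was lower in 129SvJ/Iso brain at −1.38, −0.64, −0.80 and −0.42 (mean −0.81 ± 0.41, adjusted p = 0.793). Both dye orientations gave it a negative mean, −0.65 and −0.96, so turning the sign on the Cy5 arrays brought it to 0.14 (adjusted p = 0.662). In C3H liver the 4 phosphatase genes Cdc14b, Cdc25a, Cdc25b and Cdc25c all had means above 0, between 0.15 and 0.32, with 0 past the unadjusted threshold. The sign of Cdc14b depended on the probe, since its other probes gave 0.11 ± 0.16, −0.05 ± 0.38 and −0.60 ± 0.57, the last below 0 in 4 of 5 mice and past that threshold.

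Of the Cdc genes with other duties, Cdc42 and Cdc37 were, with Cdk5rap1, the 3 lower members in 129SvJ/Iso liver. Cdc42, the GTPase that organises actin and cell polarity, had −0.81, −1.32, −0.24 and −0.95 in the 4 mice (mean −0.83 ± 0.45, or 0.562 of wild type, adjusted p = 0.346). Cdc37, a co-chaperone that brings kinases to Hsp90, had −0.55, −1.15, −0.74 and −0.68 (mean −0.78 ± 0.26, or 0.582 of wild type, adjusted p = 0.346). Both genes were below 0 in every mouse and in both dye orientations. When all 12 arrays entered 1 fit with the mouse as a random block, both passed, Cdc42 at −0.87 (adjusted p = 0.024) and Cdc37 at −0.75 (adjusted p = 0.0439). How many of all probes passed in that fit was not counted, and more members reached the unadjusted threshold in it. Another Cdc42 probe, usable in 3 of these mice, gave 0.63 ± 1.83. Hepatocyte markers in 129SvJ/Iso liver were below 0 in 9 of 9, with a median of −0.93, a range of −1.16 to −0.56 and 7 lower at the unadjusted threshold, and their part in the Cdc37 and Cdc42 values was not tested.

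Cdc42ep2, an effector of Cdc42, was higher in C3H liver with 0.10, 0.52, 0.06, 0.23 and 0.29 (mean 0.24 ± 0.18, adjusted p = 0.36). It also lay above 0 in the 3 mice with a value in 129SvJ/Iso brain, at 0.60, 0.62 and 0.54 (mean 0.59 ± 0.04, adjusted p = 0.793), where turning the Cy5 arrays left 0.28. Cdc37l1, a relative of Cdc37, varied little in C3H thymus, at −0.16, −0.17, −0.16, −0.12 and −0.27 (mean −0.18 ± 0.05, adjusted p = 0.61).

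The strain difference asks whether the ratio in C3H departed from that in 129SvJ/Iso. Strain goes with age, pool and array series here, which cannot be told apart from it. The share of all probes without overlap between strains was not counted, so lack of overlap below describes the named genes only. At an adjusted p under 0.05, 0 members differed in any organ, against 0.288% of all probes in liver and 0% in spleen and brain. At the unadjusted threshold, 3 of 41 members were higher in C3H liver (8.08% of all probes) and 1 lower (11.2%). In spleen it was 0 of 43 higher (3.86%) and 1 lower (3.17%), and in brain 3 of 44 higher (4.98%) and 2 lower (4.92%). Liver counts lay between 2 and 7 with 1 mouse left out: they were 2 without C3H mouse 1 or 5 or 129SvJ/Iso mouse 1 or 5, and 7 without 129SvJ/Iso mouse 3. The spleen count became 2 without C3H mouse 2 and 3 without 129SvJ/Iso mouse 4, and the brain count 3 without C3H mouse 1 or 129SvJ/Iso mouse 3.

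In liver, Cdc37 had the smallest p among the members. Its C3H mice had 0.09, 0.06, 0.31, 0.36 and −0.37 and did not overlap with the 129SvJ/Iso mice above. The difference was 0.87 (C3H minus 129SvJ/Iso, adjusted p = 0.113). The E-type cyclin Ccne1 went the other way: C3H mice had 0.01, 0.20, 0.23, 0.13 and −0.04, and 129SvJ/Iso mice 0.46, 0.73 and 1.15. These groups did not overlap either, and the difference was −0.68 (adjusted p = 0.19). Cdk5rap1 differed by 0.98 (adjusted p = 0.2) with overlapping mice, the effector Cdc42ep4 by 0.52 (adjusted p = 0.246) without overlap, and Cdc25a by 0.78 (adjusted p = 0.283) with overlap.

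In spleen, Cdc6 mice of C3H had −0.21, 0.46, 0.00, −0.59 and 0.02, all below the 129SvJ/Iso mice, and the difference was −0.99 (adjusted p = 0.671). With the sign turned on the Cy5 arrays of C3H spleen only, it was −0.67 (adjusted p = 0.693). With both strains turned, the Cdc6 means were 0.26 in C3H and 0.00 in 129SvJ/Iso, so the order reversed. Mcm6 differed by −0.47 without overlap (adjusted p = 0.758), and by −0.50 with C3H spleen turned. With both strains turned, its means were −0.06 in C3H and 0.15 in 129SvJ/Iso. The splicing gene Cdc5l (−1.31), Ccna1 (−0.83) and Cdc42ep1 (0.59) followed, all with overlapping mice and adjusted p from 0.726 to 0.773. With C3H spleen turned they had −1.12, −0.12 and 0.61. With both strains turned, the Cdc5l means were −0.09 in C3H and −0.82 in 129SvJ/Iso, also in reversed order, while Ccna1 and Cdc42ep1 kept their order.

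In brain, Cdk4 differed by −0.95 (adjusted p = 0.172), with no overlap between the 5 C3H and the 3 129SvJ/Iso mice. Cdc25c differed by 0.84 (adjusted p = 0.285): C3H mice had 0.21, −0.06, −0.35, 0.17 and 0.19, all above the 129SvJ/Iso mice. Cdk2ap1 (−0.50), Cdc37l1 (0.68) and Cdc20 (1.09) had adjusted p between 0.409 and 0.44. With the sign turned on the Cy5 arrays of 129SvJ/Iso brain, 2 members passed, Cdk4 at −1.61 (adjusted p = 0.0314) and the splicing-linked kinase Cdk11b at −1.38 (adjusted p = 0.0209). How many of all probes passed with that turn was not counted. The same turn brought Cdc25c to −0.11 and Cdc20 to −0.44. C3H brain, whose dye orientations did not correlate either, stayed as measured in this turn. The brain values thus change with the dye convention, which the sources do not state. On each array 1 extreme value was repeated, and its sign followed the dye on 86 of 86 arrays, brain included. By that mark the values as measured share 1 convention, from which the turned values depart.

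**Figure D4:**
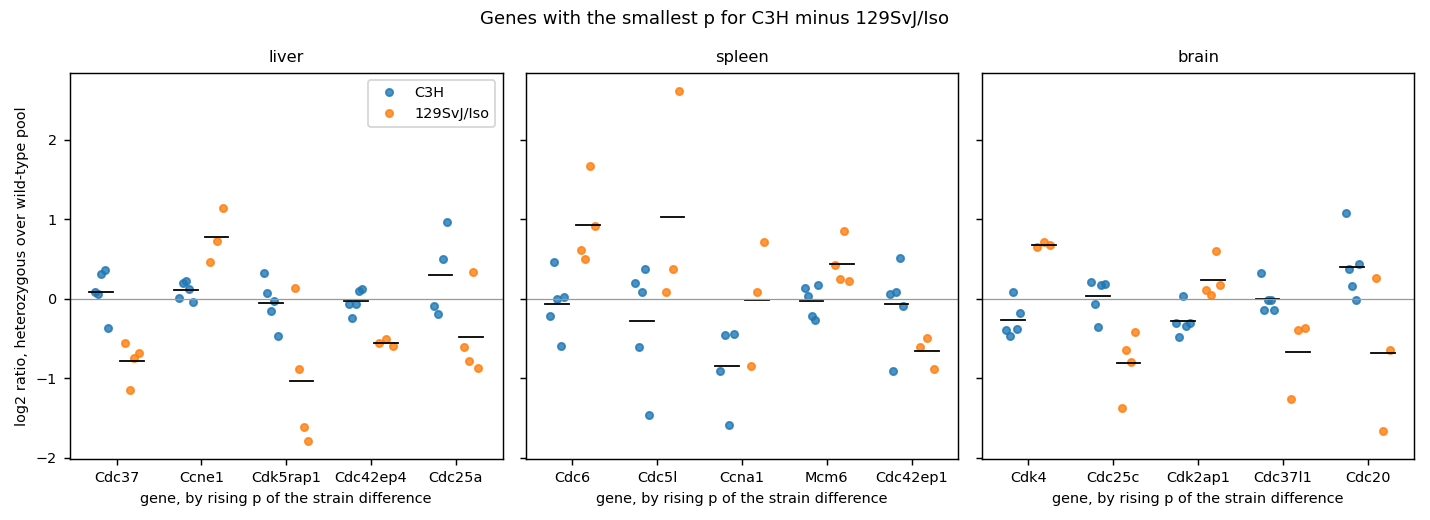
Log2 ratios of single mice in C3H (blue) and 129SvJ/Iso (orange) for the 5 genes with the smallest p of the strain difference in liver, spleen and brain; black bars are means. Cdc37, Ccne1 and Cdc42ep4 in liver, Cdc6 and Mcm6 in spleen, and Cdk4, Cdc25c, Cdk2ap1 and Cdc37l1 in brain show no overlap between strains, and none passed adjustment. The genes shown were picked by the p of the same difference. Cdk20 in liver and Cdk11b in brain, not shown, did not overlap either.

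The organ difference asks whether a member's ratio varied between organs of 1 strain. In C3H 3 of 52 members reached the unadjusted threshold against 11.4% of all probes, and 0 the adjusted one against 0.227%. In 129SvJ/Iso it was 4 of 30 against 16.4%, and 0 at the adjusted threshold against 0%. Cdk14 had the smallest p in C3H, with means of 0.53 (liver), 0.21 (thymus), 0.01 (brain) and −0.32 (spleen), with an adjusted p of 0.219. Its spleen mice were all below 0 (−0.30, −0.10, −0.23, −0.88 and −0.08), while its liver mice were all above 0. With the Cy5 arrays of spleen turned, the spleen mean was 0.14 and the adjusted p of the organ difference 0.523. Ccna1 had 0.15, 0.20, 0.49 and −0.85 in the same order (adjusted p = 0.323) and Cdk11b 0.00, −0.18, 0.08 and −0.93 (adjusted p = 0.357). Cdk18 and Ccna2 came next without reaching the unadjusted threshold.

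The 3 C3H members past the unadjusted threshold all had their lowest mean in spleen as measured. With the Cy5 arrays of spleen turned, the spleen means were 0.14 for Cdk14, −0.14 for Ccna1 and −0.74 for Cdk11b. Mcm10 passed adjustment with that turn (adjusted p = 0.0401), and how many of all probes passed was not counted. Without spleen 0 members reached the unadjusted threshold. Without mouse 2 or 3 the C3H count was 1 or 5. In 129SvJ/Iso, Cdc25c had means of 0.54 in liver, −0.06 in spleen and −0.81 in brain (adjusted p = 0.257). Cdc37 (−0.78, −0.05 and 0.00), Cdc42 (−0.83, −0.22 and −0.01) and the kinase Cdk18 (−0.43, 0.42 and 0.13) had their lowest mean in liver, as had Cdc42ep4 (−0.55, 0.29 and −0.10), with adjusted p between 0.271 and 0.32. With the Cy5 arrays of brain turned, 2 members reached the unadjusted threshold. Without brain 1 member was past the unadjusted threshold, and the count was 1 or 0 without mouse 1 or 5.

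In 129SvJ/Iso thymus 47 members had values on at least 4 of the 6 pool arrays. Of them 27 (57.4%) were below 0, against 39.6% of 16186 probes, and their median was −0.18 against 0.24. The lowest was Cdk16, with a mean of −3.08 and arrays between −3.46 and −2.03 (median −3.35). Only 20 probes of the array were lower. Cdc42 followed at −2.17 (−2.95 to −1.05), and then Cdc73, a subunit of the Paf1 transcription complex, at −1.79 (−4.86 to −0.15). Cdk2 had −1.43 on 4 arrays (−2.26 to −0.77).

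The highest pool means were those of Cdk6 at 2.43 (−0.38 to 4.56), Cdc45 at 1.71 (−0.21 to 3.68) and the replication factor Mcm10 at 1.23 (−1.90 to 4.74). The sign held on every array for a minority: 9 of 47 members (19.1%) were below 0 on all their arrays, against 11.4% of all probes, and 2 (4.26%) were above 0 on all, against 11.4%. Those 2 were Cdc25c (0.35 to 1.76) and Cdc20 (0.10 to 2.87). These arrays compare a single pair of pools, so their range is technical. In C3H thymus, whose mice were hybridised singly, Cdk16 had a mean of −0.17 ± 0.33, Cdc42 −0.20 ± 0.27 and Cdc73 0.08 ± 0.30, given beside the pools without a test.

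**Figure D5:**
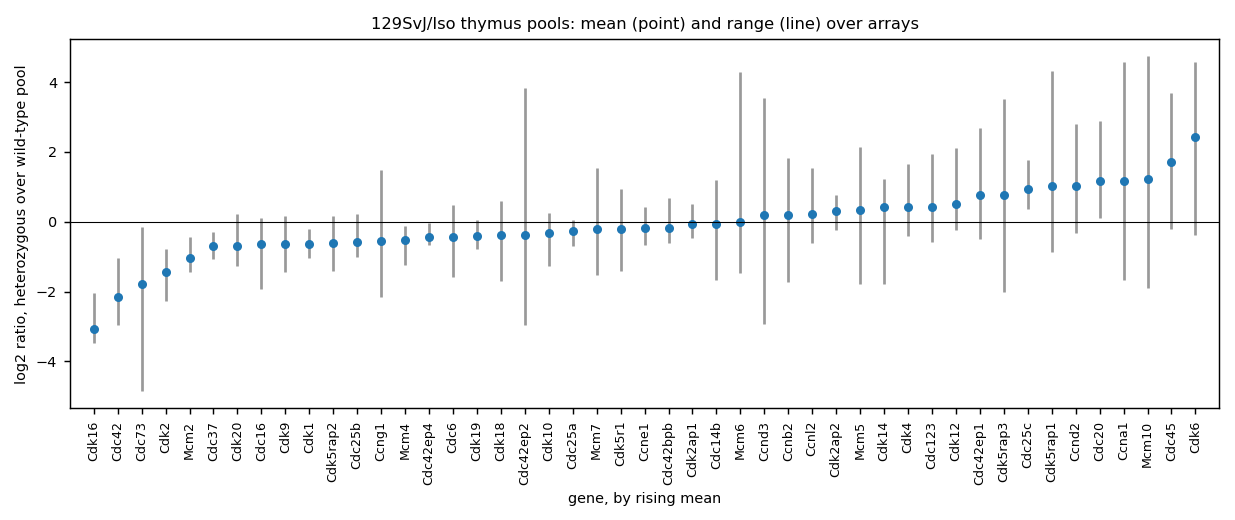
Mean (points) and range (lines) of the log2 ratio of heterozygous over wild-type pool over the 4 to 6 arrays of 129SvJ/Iso thymus on which each of 47 genes had a value, in rising order. Cdk16 and Cdc42 stand below the rest with ranges clear of 0, and the ranges widen toward the right.

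Other genes of the cell cycle, a list of 74 on the array that covers CDK inhibitors, Rb and E2F factors, origin licensing, DNA synthesis and mitosis, was counted in the same way. In C3H liver 2 of 73 were higher and 2 lower, in thymus 2 and 2 of 71, in spleen 1 and 3 of 65, and in brain 1 and 3 of 72. In 129SvJ/Iso it was 6 and 2 of 48 in liver, 0 and 2 of 60 in spleen, and 2 and 3 of 56 in brain. These stand beside the shares of all probes given above for each group, which were, for higher and lower, 6.11 and 7.66% in C3H liver and 7.86 and 6.25% in 129SvJ/Iso liver. None passed adjustment, and the genes named next were among the 3 smallest p of their group. Myc, a driver of growth and of cell cycle entry, had −0.48 ± 0.23 in C3H brain, below 0 in 5 of 5 mice (adjusted p = 0.565), and 1.03 ± 0.82 in C3H thymus, above 0 in 3 of 4 (adjusted p = 0.593). The CDK inhibitor Cdkn1b had −0.22 ± 0.15 in C3H brain, below 0 in 5 of 5 (adjusted p = 0.565). Pkmyt1, which holds Cdk1 inactive, was below 0 in every mouse measured in C3H spleen (−0.49 ± 0.32), 129SvJ/Iso spleen (−0.88 ± 0.96) and 129SvJ/Iso liver (−0.99 ± 0.60), with adjusted p of 0.796, 0.916 and 0.346, while C3H liver had 0.54 ± 0.62. The spindle checkpoint gene Mad2l1 had −0.81 ± 0.29 in 129SvJ/Iso brain, below 0 in 4 of 4 (adjusted p = 0.793). No turned values were made for these other cell cycle genes, so their brain and spleen values carry the dye limit given above.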

How the data were processed

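The deposited tables hold 1 value per spot of 86 arrays, read as log2 ratios that the authors had already normalized; their scale, centring and direction are not stated, and the normalization steps behind them are not given in the sources used here. Each array repeated 1 extreme value (size 14.88 to 17.54, on 19 to 618 spots) whose sign followed the dye on 86 of 86 arrays, and values beyond 14 were treated as missing. The deposited signs were kept and read as heterozygous over wild type, and the labelled dyes served to group arrays by orientation. Ratios were averaged within and then over dye orientations for each mouse. They were tested against 0 for probes with at least 3 mice with limma 3.58.1 (lmFit, eBayes) in R 4.3.3. P-values were adjusted over all tested probes by the Benjamini-Hochberg method. Mouse 1 of C3H spleen had 1 array only, so its dye effect did not cancel. The code was tested on simulated data.

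The number of arrays limits the precision. A wild-type pool that departed from other wild-type mice would shift every mouse of its group the same way, which the p-values do not cover. The platform annotation gave 1 symbol for 12771 of 20794 probes, several for 0 and none for 8023. Named genes were those with an unadjusted p under 0.05 in a group (at most 6 each way), the 5 with the smallest p of each strain or organ difference, the 3 lowest and 3 highest of the thymus pools, Cdk2 in every group and, of the other cell cycle genes, the 3 with the smallest p per group. Members named for a shared sign across groups or arrays, Cdc45 and the Mcm genes of 129SvJ/Iso spleen, Cdc6 of C3H liver, and the genes of the Cdk5 and phosphatase groups without a test past the threshold were chosen after their values were seen. Members, lists and tests were chosen with earlier results of these data known. Organs with the same mouse number came from the same animal, so the mouse was also tried as a block. Deviations from the group means correlated between −0.10 and 0.10 in 30 C3H organ pairs and between −0.03 and 0.04 in 11 of 129SvJ/Iso. Alternatives were the floor values kept, centring, robust eBayes, values in every mouse, the mean of a gene's probes, a fit of all arrays in which the mouse was a random block, turned signs, and each mouse left out.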

Additional observations from a re-analysis of the deposited data

Results flagged for a closer look

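In 73 results named by rule, 2 mice stood far from the others of their group by Dixon's test, which chance alone does in about 1 of 20 groups. The 73 leave out results named after their values were seen. Among those, mouse 1 for Cdc6 in C3H liver (1.80, others −0.29 to 0.08) also stood apart. The 2 within the 73 were as follows. For Cdk14 in C3H spleen, mouse 4 had −0.88 and the other mice −0.30 to −0.08. For Cdc42ep4 in 129SvJ/Iso spleen, mouse 3 had 1.07 and the other mice −0.09 to 0.23. Over all members, 20 of 294 sets of mice were so marked (6.8%).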

How the results depend on the processing

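Of 522 recomputed values for 51 named results, 511 kept their direction and their side of the adjusted threshold, 3 newly passed it and 8 changed sign. The organ differences among them have no direction, so for these only the side of the threshold was compared. The sign changed for Ccnd2 in C3H liver with the mean of its probes (−0.09), for Cdk2 in 129SvJ/Iso spleen without mouse 5 (0.17, with a range of −0.43 to 0.17 over the mice left out), and, with the Cy5 arrays turned, for Cdc25c in 129SvJ/Iso brain (0.14), for Cdc20 (−0.10), Cdk4 (0.15) and Cdk2 (0.15) in C3H brain, and for the brain strain difference of Cdc25c (−0.11) and Cdc20 (−0.44).

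Counts at the unadjusted threshold moved as follows. With arrays centred, C3H liver went from 7 to 3 and thymus from 3 to 5. With the mean of probes, C3H liver had 4, 129SvJ/Iso spleen 1 and the liver strain difference 8. With all arrays and the mouse as a random block, C3H thymus had 5, C3H spleen 2, 129SvJ/Iso liver 10 and spleen 4, and 2 members passed adjustment in 129SvJ/Iso liver. With values in every mouse, 129SvJ/Iso spleen had 1, and the medians of 129SvJ/Iso liver and brain were −0.42 and 0.11. The 129SvJ/Iso brain median was 0.10 with floor values kept and −0.13 with the Cy5 arrays turned, which gave a count of 5 and 2 adjusted calls in the brain strain difference. Turned Cy5 arrays gave a count of 9 in C3H brain, 1 adjusted call in the organ difference of C3H and a count of 2 in that of 129SvJ/Iso. The shares of all probes called in these alternative settings were not counted. Turned values of C3H brain, 129SvJ/Iso spleen, the strain differences and the organ differences were added after seeing the data. Without spleen the C3H organ difference had 0, and without brain that of 129SvJ/Iso had 1.

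With each mouse left out, adjusted counts stayed at 0. Unadjusted counts ran from 3 to 10 in C3H liver, 0 to 3 in thymus, 1 to 3 in spleen and 1 to 3 in brain, and from 0 to 6, 0 to 3 and 1 to 4 in 129SvJ/Iso liver, spleen and brain. They ran from 2 to 7, 1 to 3 and 3 to 6 for the strain difference in liver, spleen and brain, and from 1 to 5 and 0 to 4 for the organ difference in C3H and 129SvJ/Iso. Medians ran from 0.06 to 0.11 in C3H liver, 0.01 to 0.03 in thymus, −0.05 to −0.01 in spleen and 0 to 0.03 in brain, from −0.26 to −0.12, −0.06 to 0.07 and 0.05 to 0.14 in 129SvJ/Iso liver, spleen and brain, and from 0.05 to 0.36, −0.17 to 0.05 and −0.13 to −0.05 for the strain differences. The cause of these moves was not tested.

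With the mouse as a replicate block, 3 members reached the unadjusted threshold of the organ difference in C3H and 3 in 129SvJ/Iso, with 0 at the adjusted threshold in both. In C3H they were Ccna1, Cdk11b and Cdk14 as before; in 129SvJ/Iso they were Cdc37, Cdc6 and Cdk5rap2, so that of the 4 without the block only Cdc37 was among them. Missing values and few mice limit the 129SvJ/Iso results, and the unstated direction limits both strains.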
